A study of Mus musculus with 15 samples.

Results

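Acetylation of lysine 27 on histone H3 (H3K27ac) was mapped by ChIP-seq in wild type C57BL/6 mice, in thymocytes that carry both CD4 and CD8 and lack CD69 (CD69-CD4+CD8+). The results below describe the 2 deposited peak lists of this mark, replicate 1 and replicate 2, which are 2 of the 15 samples of a series on cohesin-driven loop extrusion. The others are 8 Hi-C, 2 input, 2 Rad21 and 1 CTCF samples, and the Hi-C samples include knockout genotypes that were not used here. Both H3K27ac samples have the same genotype, tissue and sort. No sample in the series maps H3K27ac in another genotype, so there is no condition to compare, and each value is given in both lists without a test. The labels give no age, and nothing in them says that each replicate is another animal, so the lists may differ for technical reasons alone. Every protein-coding gene model of chromosomes 1 to 19 and X was given the number of bp that lie inside a peak within the gene body and 20000 bp on either side, called its window. There were 22351 such models, Ptcra added. Only the position and width of peaks were used, and a bp in several windows was counted in each.

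H3K27ac is placed by the acetyltransferases CBP and p300 and marks active promoters and active enhancers. Long, nearly continuous stretches of it, often called super-enhancers or stretch enhancers, are known to lie around genes that set the identity of a cell. CD4+CD8+ thymocytes rearrange the T cell receptor alpha locus with the RAG recombinase and then wait for selection, and CD69 appears once their receptor has signalled. Genes known for this stage include the coreceptors Cd4, Cd8a and Cd8b1, the CD3 chains, Rag1 and Rag2, and the transcription factors Tcf7, Bcl11b and Ets1.

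The sequences of 5 promoters, 250 bp upstream of the 5′ end of the gene, give a view of the DNA beneath the mark. They were read from NCBIM37, which mm9 displays, 5′ to 3′ on the strand of the gene. Cd8b1 and Cd247 stand for receptor genes with much of the mark, Rag1 and Tcf7 for regulators of the stage, and Rps6, a ribosomal protein gene, for a gene whose mark did not reach beyond its promoter. In each of the 5, all 250 bp lay inside a peak in both lists. Capitals mark a match, on either strand, to TGTGGT (RUNX proteins), CAGGTG (E proteins), GGAAGT (ETS proteins) or CTTTGA (TCF and LEF proteins). No capitals overlap between motifs.
Cd8b1, chr6:71272580-71272829, plus strand: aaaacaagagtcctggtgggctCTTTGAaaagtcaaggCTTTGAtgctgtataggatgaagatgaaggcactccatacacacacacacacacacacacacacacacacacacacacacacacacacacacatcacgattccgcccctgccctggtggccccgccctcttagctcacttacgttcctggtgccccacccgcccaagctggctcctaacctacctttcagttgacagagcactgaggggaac
Cd247, chr1:167718562-167718811, plus strand: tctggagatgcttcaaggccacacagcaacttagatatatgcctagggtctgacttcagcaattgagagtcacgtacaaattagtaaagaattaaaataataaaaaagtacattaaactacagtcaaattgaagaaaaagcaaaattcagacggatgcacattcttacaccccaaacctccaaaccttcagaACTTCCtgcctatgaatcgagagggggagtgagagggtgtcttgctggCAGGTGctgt
Rag1, chr2:101489659-101489908, minus strand: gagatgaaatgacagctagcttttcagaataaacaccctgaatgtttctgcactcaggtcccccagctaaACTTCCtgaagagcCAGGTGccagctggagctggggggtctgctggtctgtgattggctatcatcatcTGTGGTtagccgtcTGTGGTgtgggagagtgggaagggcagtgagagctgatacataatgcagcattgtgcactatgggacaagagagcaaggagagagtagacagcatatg
Tcf7, chr11:52096682-52096931, minus strand: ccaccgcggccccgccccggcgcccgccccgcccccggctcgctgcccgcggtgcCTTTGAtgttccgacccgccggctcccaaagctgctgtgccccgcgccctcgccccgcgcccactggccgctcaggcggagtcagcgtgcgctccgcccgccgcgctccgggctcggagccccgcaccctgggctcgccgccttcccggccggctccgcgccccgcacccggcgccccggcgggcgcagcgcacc
Rps6, chr4:86503317-86503566, minus strand: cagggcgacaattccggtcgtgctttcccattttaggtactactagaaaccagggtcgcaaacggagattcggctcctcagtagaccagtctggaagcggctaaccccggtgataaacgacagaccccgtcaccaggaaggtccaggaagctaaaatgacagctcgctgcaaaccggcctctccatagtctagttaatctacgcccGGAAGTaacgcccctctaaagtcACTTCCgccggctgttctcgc
The Rag1 promoter held 2 matches to TGTGGT, 1 to CAGGTG and 1 to GGAAGT, and a single CpG. Cd8b1 held 2 matches to CTTTGA and 5 CpG, Cd247 held 1 match each to CAGGTG and GGAAGT and 3 CpG, and Rps6 held 2 matches to GGAAGT and 18 CpG. The Tcf7 promoter stood apart in base composition, with 83.6% GC and 43 CpG, and held 1 match to CTTTGA. These stretches thus range from CpG-poor to CpG-dense although the mark covered all of them in both lists.

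Over all gene models, 12.7% of the 250-bp upstream stretches held TGTGGT, 17.0% CAGGTG, 19.8% GGAAGT and 13.4% CTTTGA. Among the 41 genes of the receptor signalling and stage regulator lists described below, the shares were 14.6%, 31.7%, 29.3% and 17.1% in the same order. Among 16 housekeeping genes they were 0%, 18.75%, 31.25% and 6.25%. Among the 535 genes with at least 10000 bp of H3K27ac in both lists they were 10.5%, 16.3%, 20.2% and 9.53%. The higher shares of the 41 chosen genes were thus not seen over all genes rich in the mark. A motif match describes letters only. Genes with at least 10000 bp of H3K27ac in both lists and genes with at least 2000 but under 10000 bp alike had a median of 15 CpG upstream, against 8 over all genes and 3 where at least 1 list had no mark in the window. The 41 T cell genes had a median of 5 CpG, below the median over all genes although most of them are rich in H3K27ac.

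The labelled cell type was checked first. Of 12 markers of CD4+CD8+ thymocytes, all 12 had H3K27ac within 2000 bp of a transcription start site (TSS) in both lists, against a background of 40.8% of all gene models (9123 of 22351). Markers of selected or mature thymocytes had it in 6 of 8, without Il7r and S1pr1. Markers of other cells the thymus can hold had it less widely: 3 of 8 B cell genes (Blk and Cd79b among them), 1 of 8 myeloid genes (Sfpi1), 2 of 6 erythroid genes (Klf1 among them) and 2 of 7 genes of thymic epithelium (Aire, Cldn4). The defining factors Pax5 and Ebf1 (B cells), Cebpa (myeloid cells), Gata1 (erythroid cells) and Foxn1 (thymic epithelium) had no peak at their promoters in either list. The summed bp of the windows were 341015 and 186348 for the 12 stage markers, 80482 and 17935 for the 8 mature markers, 21551 and 15750 for the B cell markers and 18346 and 8821 for the myeloid markers, in list 1 and list 2. They were 3805 and 1471 for the erythroid and 16502 and 9848 for the epithelial markers. Since a peak is called from a whole population, a mark in few cells and a weak mark in all cells cannot be told apart.

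List 1 held 38700 peaks over 63.5 Mb and list 2 held 24765 peaks over 26.0 Mb. The median peak was 1076 bp wide in list 1 and 733 bp in list 2, and the widest were 103976 and 29711 bp. Peaks of at least 5000 bp made up 4.60% of list 1 and 24.3% of its bp, but 1.20% of list 2 and 8.23% of its bp. Wide peaks thus hold a larger share of list 1 than of list 2. They shared 21.5 Mb, which is 33.9% of the bp of list 1 and 82.7% of the bp of list 2, so that the smaller list lay mostly inside the larger. Peak lists hold no read counts, and the depth of the libraries is unknown.

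By position, the mark lay mostly in and near genes. Stretches within 2000 bp of a TSS make up 4.24% of the genome and held 24.9% of the H3K27ac bp of list 1 and 39.6% of list 2. Gene bodies beyond promoters, 34.9% of the genome, held 51.6% and 39.3%. The 20000-bp flanks held 10.4% and 10.1%, and the rest of the genome, at 46.8%, held 13.1% and 11.0%. Put as density, peaks covered 14.1% of promoter bp in list 1 and 9.20% in list 2, and 0.672% and 0.232% of the bp outside all windows. Promoters were thus the most densely covered compartment in both lists, and gene bodies beyond them were covered at 3.56% in list 1 and 1.11% in list 2.

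In each list some genes carried far more of the mark than most. H3K27ac was present in both lists in the windows of 13214 of 22351 gene models, a background of 59.1%. Taken alone, list 1 had it in 64.1% of models and list 2 in 60.6%. A further 1117 had it in list 1 only and 338 in list 2 only, and 7682 (34.4%) had none in either. Over the genes in both lists the medians were 3732 bp in list 1 and 1933 bp in list 2. The smaller of the values of a gene had quartiles of 1003 and 3514 bp around a median of 1890 bp. Genes with at least 10000 bp in both lists, called H3K27ac-rich genes below, numbered 535 or 2.39% of all, and because neighbouring windows overlap they form 383 separate loci. The genes next to this threshold were Coro1c (10006 bp) and Alg14 (10009 bp) just inside and Rag2 (9995 bp) and Foxo3 (9994 bp) just outside. Window length tracked the covered bp only weakly over the 13214 genes, which share both libraries, with a Spearman correlation of 0.15.

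**Figure D1:**
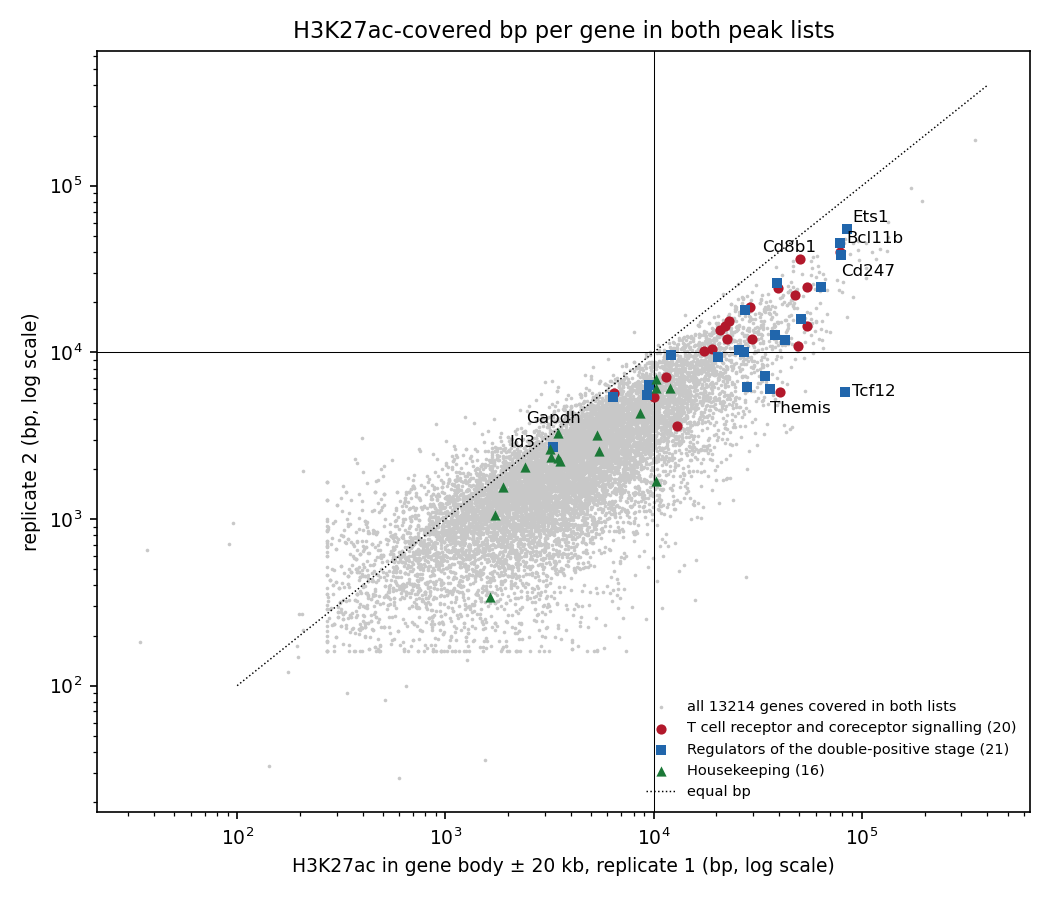
Covered bp per gene in replicate 1 (horizontal) against replicate 2 (vertical), both on log scales, for 13214 genes with the mark in both lists (grey), with 3 gene lists in colour, a dotted line of equal bp and thin lines at 10000 bp. Most points lie below the dotted line, receptor and stage regulator genes reach the upper right, and Tcf12 and Themis lie far below the line.

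The T cell receptor and coreceptor genes carried the mark at every member. Of 20 genes from receptor chains to signalling proteins, 20 had H3K27ac in the window and at the promoter in both lists, and 15 were H3K27ac-rich genes, against 2.39% of all genes. Their median was 26002.5 bp in list 1 and 12868.5 bp in list 2, where all genes had 1445 and 760 bp. The median window was 64414 bp, against 55427 bp over all genes, and peaks covered a median of 33.6% and 16.7% of it. These lists of genes were chosen with earlier results of the same data known, so the counts describe the members and support nothing beyond them.

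Among the receptor chains, Cd247, which encodes the CD3 zeta chain, had 78115 bp in list 1 and 39935 bp in list 2. Nearly all of it lay beyond the promoter, 96.3% and 92.7%, and mostly inside the gene body at chr1:167718812-167807407, with 69109 and 36877 bp there. The neighbours Cd3g, Cd3d and Cd3e on chromosome 9, which encode the other CD3 chains, had 22051, 20720 and 23067 bp in list 1 and 14461, 13715 and 15527 bp in list 2. A single peak of 11326 bp in list 1 and 9435 bp in list 2 covered the start sites of both Cd3g and Cd3d, so these values are not independent. Ptcra, which encodes the pre-T alpha chain used before the alpha chain is rearranged, had 9995 and 5364 bp and was the receptor chain gene with the least.

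The genes of the CD8 coreceptor had the most completely covered windows among those of up to 1000000 bp. Cd8b1 (chr6:71272830-71287471) had 92.4% of its window inside peaks in list 1 and 66.7% in list 2, and all 14642 bp of its gene body in both. Cd8a (chr6:71323421-71329165) followed with 86.5% and 53.3%, where genes are ranked by the smaller value. Cd4 had 45.6% and 29.3%. In bp Cd8b1 had 50511 and 36458, Cd8a had 39565 and 24376, and Cd4 (chr6:124814710-124838239) had 28938 and 18588. The start site of Cd8b1 lay in a peak of 30024 bp in list 1 and 22704 bp in list 2. That peak also covers the start of Smyd1, a gene known for its role in heart and skeletal muscle, which borders Cd8b1 and had 46563 and 35410 bp. Of these, 20000 bp in each list lay upstream, on the side of Cd8b1, and 26563 and 15410 bp inside the Smyd1 gene body.

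Signalling proteins downstream of the receptor varied more. Lcp2, the adaptor SLP-76, had 29685 and 12006 bp, and Plcg1, the phospholipase, had 22385 and 12022 bp. Rhoh, a GTPase-deficient small G protein needed for receptor signalling in the thymus, had 54731 and 24720 bp, 74.8% and 33.8% of its window. Lck, the kinase that opens the cascade, had 17496 and 10171 bp, while its substrate Zap70 had 11400 and 7084 bp, and Csk, which restrains Lck, had 19079 and 10510 bp. The 5 members under the threshold in list 2 were Ptcra, Zap70, Lat (12878 and 3633 bp), Vav1 (6475 and 5706 bp) and Themis (40304 and 5790 bp). Themis, known for its role in selection, thus had far more of the mark in list 1 than in list 2. Vav1, a guanine nucleotide exchange factor, had similar values in both lists.

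Transcription factors and other regulators of the stage also carried the mark at every member, but the lists agreed less on how much. All 21 had H3K27ac in the window and at the promoter in both lists. In both lists 10 passed 10000 bp and in list 1 alone 17 did, where 9.92% of all genes passed in list 1 and 2.4% in list 2. The medians were 34082 and 9995 bp. Ets1, an ETS family factor of lymphocytes at chr9:32443806-32565405, had the most, 84574 bp in list 1 and 55333 bp in list 2. Bcl11b, needed to commit to the T cell lineage, had 78055 and 45179 bp, Runx1, a RUNX factor, had 79364 and 38614 bp, and Ikzf1, which encodes Ikaros, had 63718 and 24625 bp. Tcf7, which encodes TCF-1, had 39188 and 26152 bp and its relative Lef1 had 38248 and 12667 bp. In all of these the values of both lists stand far above the upper quartile of 3514 bp over genes in both lists.

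Satb1, a chromatin organiser, had 51172 and 15828 bp. The recombinase genes Rag1 and Rag2 are neighbours on chromosome 2 and share most of their windows. They had 25706 and 27173 bp in list 1 and 10402 and 9995 bp in list 2, so that Rag2 missed the threshold by 5 bp. The E protein genes went separate ways: Tcf12 (HEB) had 83091 bp in list 1 and 5769 bp in list 2, a ratio of 14.4, while Tcf3 (E2A) had 9490 and 6329 bp. Myb (28096 and 6184 bp), Tox (36009 and 6061 bp) and Zeb1 (34082 and 7240 bp) likewise had most of their bp in list 1 only. At the lower end were Id3, the E protein inhibitor, with 3287 and 2708 bp, Bcl6 with 6399 and 5399 bp, and Gata3, which favours the CD4 lineage, with 9333 and 5571 bp. All 3 were below 10000 bp in both lists.

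**Figure D2:**
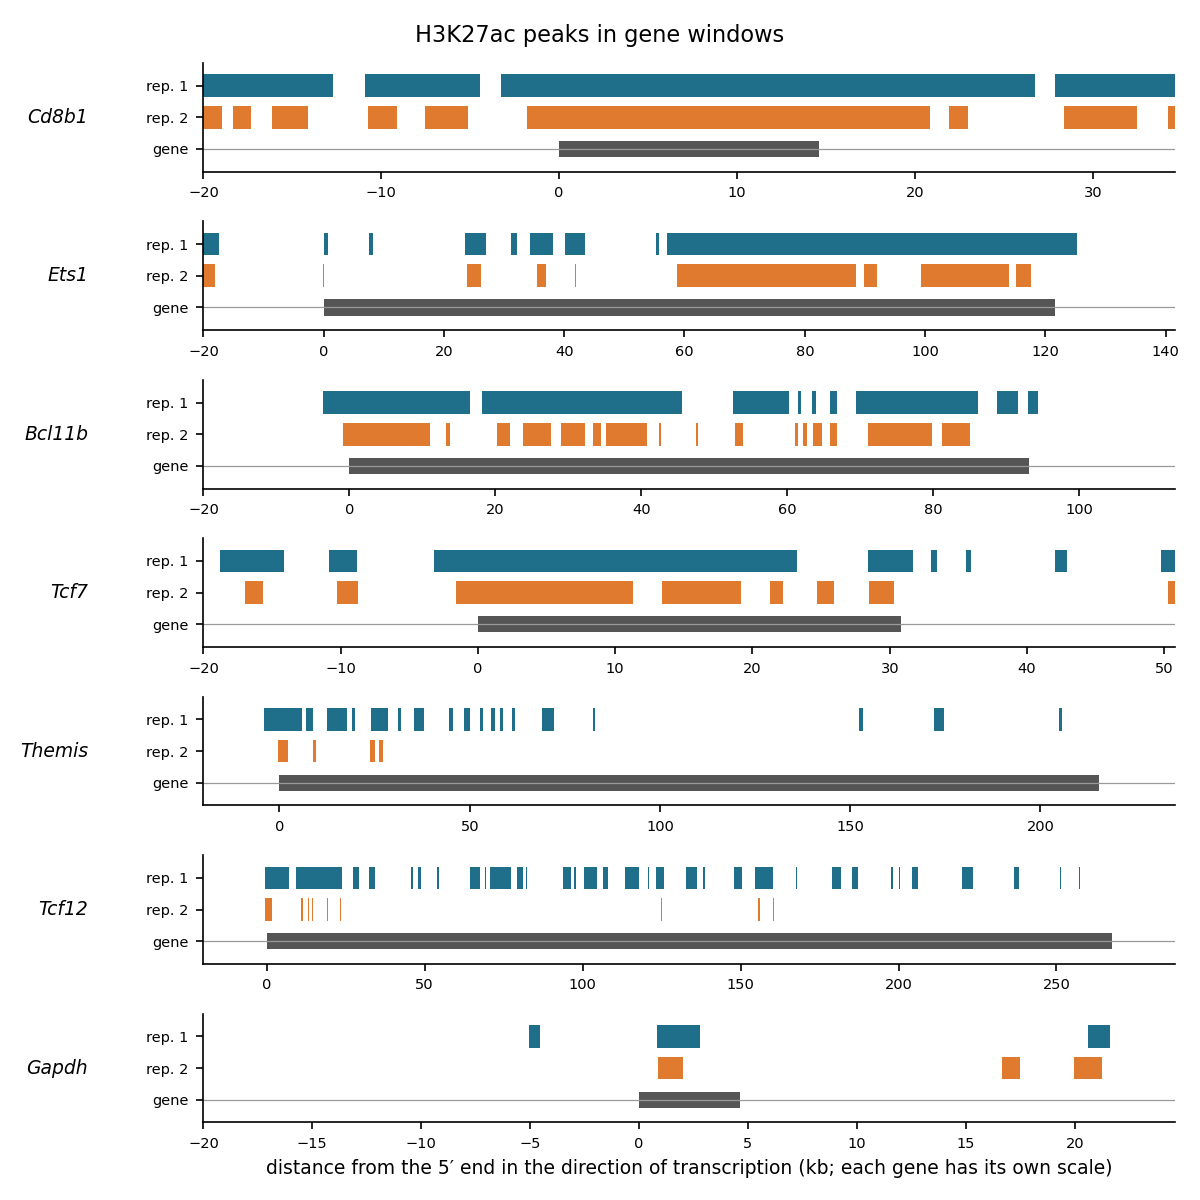
Peaks of replicate 1 (upper bars) and replicate 2 (lower bars) in the windows of 7 genes, drawn by distance from the 5′ end in kb in the direction of transcription, with the gene body as a dark bar and a separate scale for each gene. Cd8b1 is covered over 92.4% of its window in replicate 1 and 66.7% in replicate 2, Ets1, Bcl11b and Tcf7 carry long blocks in both lists, Themis and Tcf12 carry many blocks in replicate 1 that replicate 2 lacks, and Gapdh has narrow peaks.

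Surface and adhesion genes of T cells held an intermediate place, between stage regulators and all genes. Of 16, 15 had the mark in both lists, against 59.1% of all genes, and 13 at the promoter in both, against 40.8%. Their medians were 13763.5 and 7791 bp, against 1445 and 760 bp over all genes. H3K27ac-rich genes numbered 4 of the 16, against 2.39% of all genes. Those 4 were Cd27, a costimulatory receptor (30905 and 13294 bp), Ccr9, a chemokine receptor of thymocytes (25413 and 13749 bp), Thy1, which encodes the surface protein CD90 (20669 and 12335 bp), and Itgb2, an integrin chain (12517 and 11313 bp). Cd2, an adhesion receptor, came close with 24754 and 9871 bp. At the other end Ly9 had 514 bp in list 1 and none in list 2, and Cd44, whose product thymocytes lose before this stage, had 13148 and 4020 bp with no promoter peak in list 1 and 207 bp in list 2.

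Notch signalling commits progenitors to the T cell lineage and is known to decline at the CD4+CD8+ stage. Of its 14 genes 11 had the mark in both lists (78.6%, against 59.1% of all genes), and 1 was H3K27ac-rich (7.14%, against 2.39%). That gene was Notch1, the receptor, with 28185 and 12022 bp. The receptor Notch3 had 6647 and 3233 bp, Rbpj, the DNA-binding partner, had 3168 and 3126 bp, and the coactivator Maml3 had 22878 and 8984 bp. The target genes Hes1 and Dtx1 and the ligand gene Jag1 had 0 bp in both lists, while the target gene Nrarp had 4295 and 4276 bp, of which 336 and 390 bp lay in the promoter. The mark was thus present at the receptor and nuclear partner genes and absent from these windows of 2 targets.

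Genes of selected or mature thymocytes had more of the mark than all genes in the median but less than stage regulators. Of 15 genes of selected or mature thymocytes 13 had it in both lists (86.7%, against 59.1% of all genes). None of the 15 passed 10000 bp in both, which is near the 2.39% of all genes. In list 1 4 of the 15 passed, a share above the 9.92% of all genes. The medians were 4422 and 1450 bp against 1445 and 760 bp over all genes. Cd69, the marker by which the cells were sorted as negative, had 4575 bp in list 1 and 508 bp in list 2, and Bcl2, a survival factor, had 31239 and 2771 bp. Ccr7, the receptor that guides mature thymocytes to the medulla, had 17417 and 8705 bp, nearly all beyond the promoter (96.5% and 97.4%). Of 11 genes of early progenitors 4 (36.4%) had it in both lists. Flt3 was the highest at 10868 and 5091 bp with 0 bp in its promoter, and Lmo2, Hhex and Meis1 had none.

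Effector and regulatory genes were mostly empty: 6 of 15 (40.0%) had the mark in both lists, against 59.1% of all genes. Another 8 had 0 bp in both, namely Il4, Il13, Il17a, Il21, Il2, Gzmb, Tbx21 and Eomes. The checkpoint receptor genes Ctla4 (7551 and 3146 bp) and Pdcd1 (5877 and 3829 bp) led this list. Genes of other lineages were covered in part through their neighbours. B cell genes had the mark in both lists in 10 of 12 (83.3%), above the share of all genes. Their medians of 2491 and 2131.5 bp also exceeded the 1445 and 760 bp of all genes. Among them Cd79a had the most (9326 and 6526 bp) with 0 bp at its own promoter. Myeloid genes had medians of 964.5 and 570.5 bp, erythroid genes 570 and 338 bp and genes of thymic epithelium 767 and 283 bp. These medians were below those of all genes, although 66.7%, 71.4% and 60.0% of the members had the mark in both lists. Among the genes of thymic epithelium, Cldn4, a tight junction gene, was unlike the rest with 11431 and 8681 bp and 2093 and 2792 bp at its promoter. Neuronal genes had the mark in both lists in 4 of 11 (36.4%) and liver genes in 1 of 10 (10.0%), and none of these 21 had it at the promoter in both.

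Housekeeping genes give the contrast in shape. All 16 had the mark at the promoter in both lists, against 40.8% of all genes, as all receptor and stage regulator genes had. None passed 10000 bp in both lists, which among 16 genes is near the 2.39% of all genes. In list 1 alone 4 of the 16 passed, a share above the 9.92% of all genes. Their medians were 3512.5 and 2470 bp in windows of 48050.5 bp. Actb had 10269 and 6070 bp, Gapdh 3469 and 3263 bp, and Rps6 1725 and 1064 bp. B2m, the light chain of class I MHC, was the least alike between lists with 10311 and 1695 bp. The widest peak over any start site of a gene was also compared, counted as 0 bp where no start site lay in a peak. Its median width was 1905.5 and 1168 bp for housekeeping genes, 7292 and 3498 bp for receptor signalling genes and 9333 and 3348 bp for stage regulators.

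**Figure D3:**
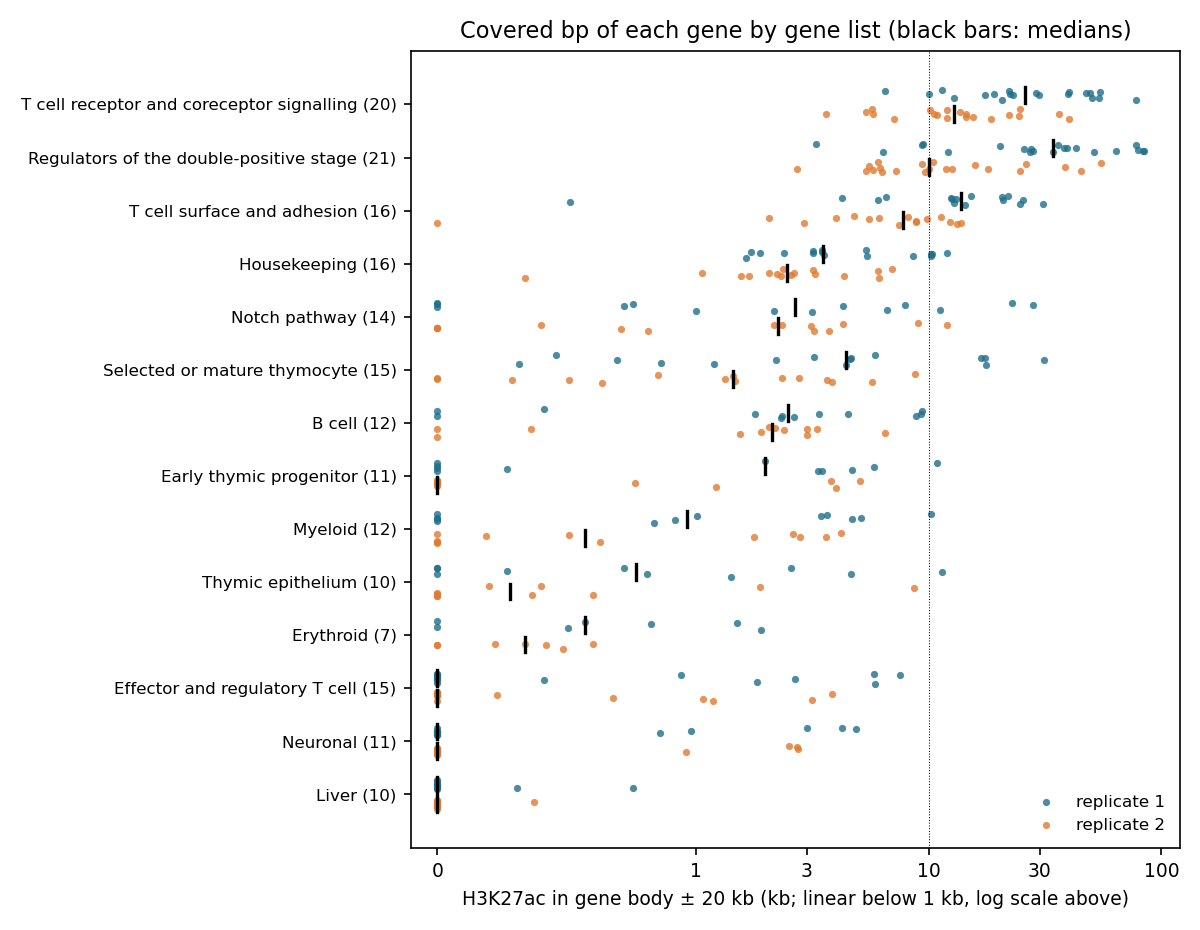
Covered kb of each gene in 14 gene lists, replicate 1 in blue and replicate 2 in orange, with medians as black bars; the axis is linear below 1 kb and logarithmic above, and the dotted line is at 10 kb. Receptor signalling genes lie mostly right of the line in both replicates, stage regulators mostly in replicate 1, and housekeeping genes around the medians of 3512.5 and 2470 bp.

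Receptor and stage regulator genes were more covered than housekeeping genes both at the promoter and away from it. A median of 81.1% of the bp of receptor signalling genes in list 1 and 75.05% in list 2 lay more than 2000 bp from any TSS, and 81.9% and 57.5% for stage regulators. For housekeeping genes these shares were 13.4% and 11.0%, and over all genes 43.3% and 17.2%. Around the 5′ end, at the best 500-bp step, the mark covered a mean of 100% (list 1) and 96.6% (list 2) of receptor genes, 92.0% and 90.5% of stage regulators, 81.1% and 76.1% of housekeeping genes, and 35.6% and 32.3% of all genes. In the 2 kb downstream the means were 96.7% and 85.3% for receptor genes, 90.9% and 83.6% for stage regulators and 59.5% and 42.7% for housekeeping genes. From 2 to 10 kb downstream, with all genes last, the means were 60.7% and 28.6%, 56.9% and 33.8%, 6.67% and 4.10%, and 4.44% and 1.85%, in the same order of lists. From 2 to 10 kb upstream they were 39.7% and 23.8% for receptor genes but 15.0% and 4.21% for stage regulators. Coverage around stage regulators therefore extended mainly into the gene, and around receptor genes in both directions, where neighbouring members of the list such as the CD3 genes share their flanks.

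**Figure D4:**
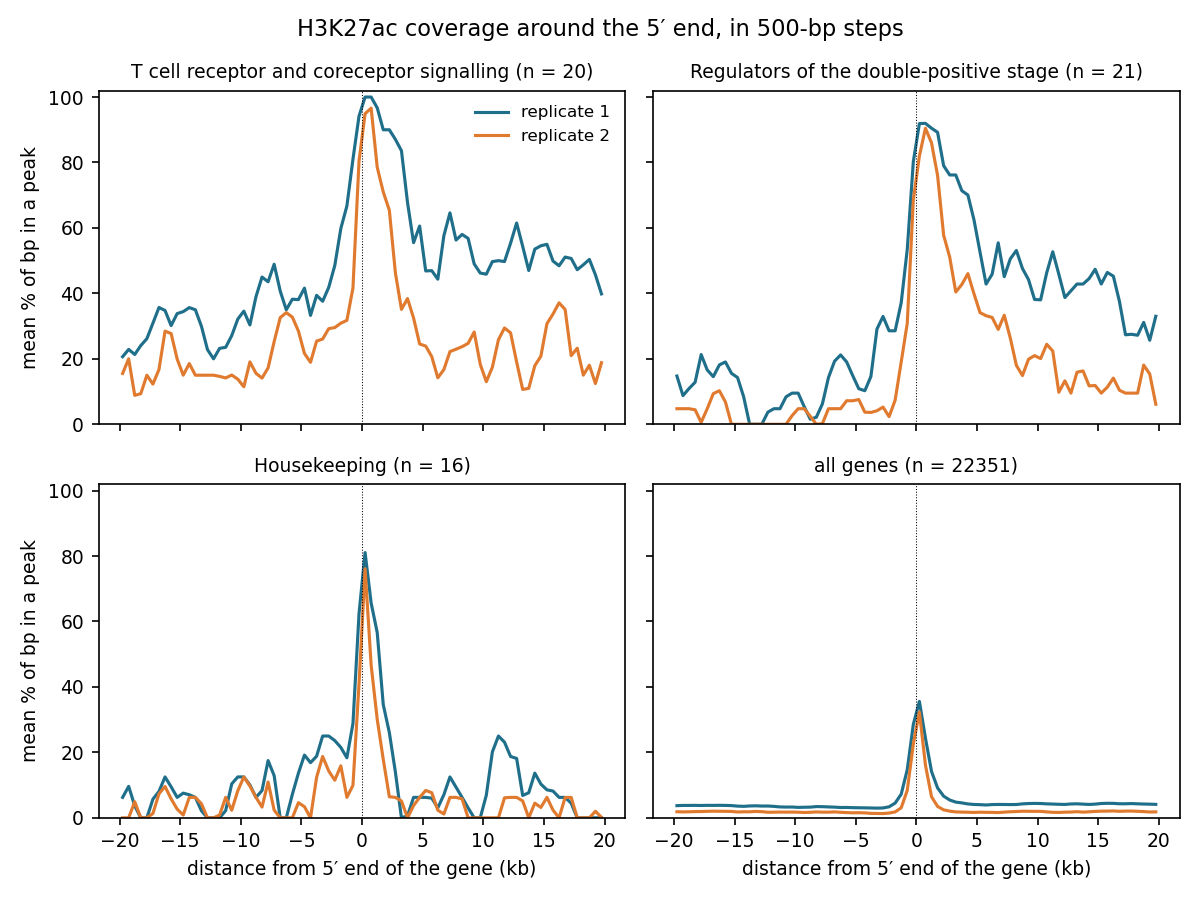
Mean share of bp inside a peak in 500-bp steps from the 5′ end of the gene, in kb in the direction of transcription, for 20 receptor signalling, 21 stage regulator, 16 housekeeping and all 22351 genes, with a line per replicate. All panels peak at the 5′ end; the first 2 stay high downstream (60.7% and 56.9% in replicate 1 from 2 to 10 kb) and the housekeeping panel drops to 6.67%.

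The 30 genes with the most H3K27ac, ranked by the smaller of the 2 values, were spread over 14 chromosomes in 29 loci. The first, Gm20388 on chromosome 8 with 347416 and 187215 bp, is a model whose window of 4474882 bp spans many other genes, and Fgfr2 (95337 and 41363 bp) has a window of 3049069 bp and no promoter peak in both lists. Both models are far longer than the median window of 55427 bp. Below Gm20388 came Mad1l1, a spindle checkpoint gene (171566 and 96505 bp), Cux1, a homeobox gene (193838 and 80584 bp), Mgat5, a glycosyltransferase that branches the N-glycans of the T cell receptor (132723 and 60566 bp), and Ets1. Arid1b, a subunit of the BAF remodelling complex, had 134032 and 49389 bp, and Ccnd3, the D-type cyclin needed for thymocyte expansion, had 82489 and 47714 bp. Then followed Clec16a (95512 and 46616 bp), Ldlrad3 (90715 and 45577 bp), Nck2, an adaptor that binds CD3 epsilon (104169 and 45474 bp), Tbc1d22a (82030 and 45323 bp) and Bcl11b.

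Ranks 13 to 30, besides Fgfr2, were Ppm1h, Pitpnm2, Eif4e3, Msi2, Cd247, Znrf1, Runx1, Fam125b, Rai1, Atp10a, Cd8b1, Itpr2, Smyd1, Sept9, Phf2, Abtb2 and Myh9, from 41575 down to 32658 bp in list 2. Receptor, coreceptor and stage regulator genes thus stand beside genes of general cell function. The share of bp beyond promoters was 69.3% to 97.9% in list 1 and 55.5% to 96.9% in list 2, which the choice of genes by total bp favours, since the promoter of a single TSS spans 4001 bp. In 28 most of it lay in the gene body. The ratio of list 1 to list 2 ran from 1.18 to 3.28. The median window of the 30 was 206945 bp, longer than the 55427 bp of all genes. All 30 are among the top 30 of list 2 and 22 among those of list 1. List 2 held the smaller value at each of the 30, so ranking by the smaller value largely repeats the ranking of list 2.

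Ranked by the share of the window covered, mostly other and shorter genes led. After Cd8b1 and Cd8a came Supt4h1, a transcription elongation factor, with 60.7% in list 1 and 47.0% in list 2, Btg2, an antiproliferative gene (53.2% and 44.5%), and Fam78a (62.7% and 41.1%). Then came Gm9990 (54.2% and 39.0%), Endou (49.0% and 38.1%), Tcf7 (55.3% and 36.9%), Dad1 (45.7% and 36.4%) and Arl5c (43.7% and 35.6%). For Supt4h1, 1630 of 27949 bp in list 1 and 586 of 21674 bp in list 2 lay in the gene body, the rest in its flanks. For Btg2, 16510 of 23378 and 14086 of 19565 bp lay downstream of the gene. Tcf7 had most in its gene body, 25663 of 39188 and 21140 of 26152 bp. Dad1 borders the T cell receptor alpha locus, whose enhancer lies between them, and 20000 and 17757 of its 26770 and 21334 bp lay downstream of the gene. The list-1 peak there was 88717 bp wide and the widest in list 2 was 10450 bp.

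The widest peak over a start site in both lists was that of Ets1, 68305 bp in list 1 and 29711 bp in list 2, the widest peak of list 2. It covers an internal start site, beginning 57016 and 58789 bp into the gene model, while the outermost 5′ end had peaks of 596 and 211 bp. Next were Cd8b1 with Smyd1, and Psap, which encodes the lysosomal prosaposin (16004 and 13935 bp). Tcf7 followed with 26442 and 12941 bp, Rhoh with 20569 and 12454 bp and Bcl11b with 20144 and 11872 bp. Edem1, a factor of protein degradation in the endoplasmic reticulum, had 21468 and 11759 bp, and Fbxl12 and Ubl5 shared a peak of 13807 and 11531 bp. Wide peaks at start sites were therefore found at regulators of the T lineage and at genes of general cell function.

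Other readouts at the same genes were counted by H3K27ac class. Windows of the 535 H3K27ac-rich genes held a median of 11.1 peaks per 100 kb of Rad21, a cohesin subunit, in Rad21 replicate 1 and 13.8 in replicate 2. Windows with at least 2000 but under 10000 bp of H3K27ac held 6.00 and 7.81, those with less than 2000 bp held 3.09 and 4.08, and those with 0 bp in at least 1 list held 0 in both. CTCF, the insulator protein that stops cohesin, had 4.05, 3.96, 3.07 and 0 peaks per 100 kb in the same classes. Rad21 density thus increased over each class while CTCF density was nearly level over the upper 2. No test was made, since windows overlap and their lengths differ between the classes, with medians of 107773, 62495, 57680.5 and 48235 bp. Single genes show the range: Runx1 had 30 and 40 Rad21 peaks and 5 CTCF peaks, Ets1 had 28 and 36 with 2 CTCF peaks, Cd8a had 14 and 26 with 1, and Tcf12 had 5 and 7 with 4.

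The promoter was marked in most of these genes. H3K27ac lay at the promoter in both lists in 486 of the 535 H3K27ac-rich genes (90.8%), against 40.8% of all genes. The share was 80.0% of genes with at least 2000 but under 10000 bp and 58.4% of genes with less. The window whose bp set these classes holds the promoter, so the choice of genes favours this order. Of the 13214 genes in both lists 3350 (25.4%) had no peak at their own promoter in either, so that their bp came from within the gene, from flanks or from a neighbour. H3K27ac-rich genes had a median of 9 peaks in each list, the widest 10724 bp in list 1 and 4802 bp in list 2, and a covered share of 28.1% and 15.0%. High values of these measures likewise follow in part from choosing genes by covered bp.

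Chromosomes differed in both lists alike. Chromosome 11, which carries Tcf7, Lcp2 and Ikzf1, was the most covered with 3.76% and 1.89% of its bp. It had the mark in both lists in 69.1% of its genes, against 59.1% of all genes. Of its 1653 genes 64 were H3K27ac-rich (3.87%, against 2.39% of all genes). The X chromosome was the least covered with 0.509% and 0.269%, had the mark in both lists in 36.9% of its genes and held 4 H3K27ac-rich genes among 932 (0.429%). The share of genes marked at the promoter in both lists was 26.3% on the X and highest, at 48.7%, on chromosome 12, where Bcl11b lies.

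The lists ranked genes alike but differed in extent. Over the 13214 genes the Spearman correlation of covered bp between the lists was 0.81, a description over genes that share both libraries. The ratio of list 1 to list 2 had a median of 1.82, with 0.823 and 5.82 as its 5th and 95th percentiles, and 1287 genes (9.74%) had more bp in list 2. The ratio moved with base composition, with a Spearman correlation of -0.36 against the GC content of the window and of 0.30 against its length. In 5 equal groups of genes from the most AT-rich to the most GC-rich its medians were 2.57, 2.14, 1.86, 1.63 and 1.46. The median window shortened over the same groups, from 81184 to 50459 bp. In bp, stretches in list 1 only had 44.3% GC over 41.95 Mb, those in both lists 53.1% over 21.5 Mb and those in list 2 only 50.3%, against 41.8% for the chromosomes. Themis (37.9% GC), Tcf12 (38.6%), Tox (39.5%) and Ptprc (38.4%), which encodes CD45 and had 49436 and 10906 bp, are among the AT-rich windows with high ratios. The part of base composition or library quality in these differences was not tested.

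**Figure D5:**
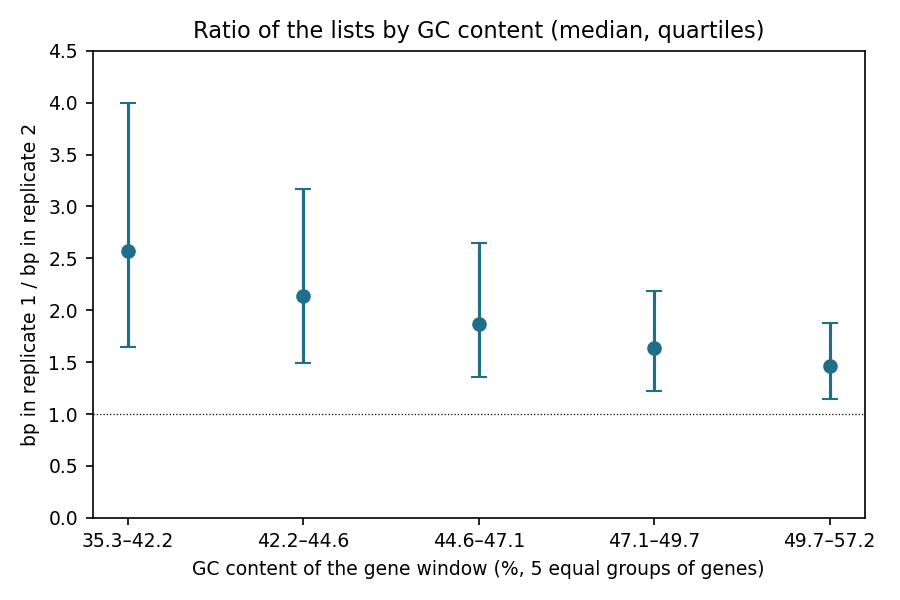
Ratio of covered bp in replicate 1 to replicate 2 (vertical) in 5 equal groups of genes by GC content of the window in percent (horizontal), as medians with quartiles, for the 13214 genes with the mark in both lists; the dotted line is a ratio of 1. The median falls from 2.57 in the group lowest in GC to 1.46 in the highest.

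Some genes were marked in a single list. The most in list 1 without any in list 2 were Ipo11 (12010 bp), Rapgef5 (11707 bp), Gm17650 (8547 bp), Gm10964 (8049 bp), Rpl15-ps2 (7931 bp) and Adarb2 (7613 bp). The most in list 2 without any in list 1 were Ttl (2260 bp), the overlapping Gnat2, Ampd2 and Gm12500 (2232 bp each), Psma5 (2031 bp) and Grip2 (1736 bp). None of these 12 belongs to a gene list used above. Rpl15-ps2 lies inside the gene body of the stage regulator Tcf12, however, so its 7931 bp are also counted for Tcf12.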

How the data were processed

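H3K27ac ChIP-seq of 2 samples was analysed from 1 peak list each, and 2 Rad21 lists and 1 CTCF list were used as other readouts. The lists are on build mm9 and MACS2 2.1.0 is named for the series, per the submitters' processing notes, which give no role for each tool. Peak starts, ends and widths in bp were used as deposited. Of the other columns, −log10 p and −log10 q were computed by the authors' caller, and −log10 q was used only in alternatives. The fold enrichment, a ratio over background deposited by the authors, and the deposited score were not used. The thresholds and any control used to call peaks were not stated.

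Gene models came from GENCODE vM1 on NCBIM37. Of symbols with several models (278 models), the gene lists used the longest. For 8 models without a coding transcript the 5′ end was the TSS. Overlapping peaks of a list were merged, and bp per window were counted with Python 3.11.15, pandas 2.3.3 and NumPy 2.4.6, correlations with SciPy 1.17.1 and sequences with pysam 0.24.0. The count was tested on simulated data, where 724 of 724 genes were equal to a direct count. The genes named were the 30 with most bp by the smaller value of both lists, the 10 with the largest covered share, the 10 with the widest start-site peak, up to 10 of each gene list and its unlike members, the 6 with most bp in 1 list only each way, and 2 on each side of the threshold. A few others were named after their values were seen, and some that the rule names are not reported here. The members and lists were chosen with earlier results of these data known. With 1 group no test between groups was possible. Peak lists carry no depth, so no counting interval could be given. Alternatives changed the flank, the promoter, the assignment of bp, the peaks kept and the lists used. Hi-C and input samples were not used here.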

Additional observations from a re-analysis of the deposited data

Results flagged for a closer look

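Chromosome Y lay outside the description. List 1 held 4 H3K27ac peaks there and list 2 held 0. Genes on this chromosome were not counted.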

How the results depend on the processing

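The number of genes with at least 10000 bp in both lists (535) depended on the window and on the peaks kept. It was 259 with gene bodies only, 307 with flanks of 5000 bp, 1345 with flanks of 50000 bp, 297 when each bp went to the nearest TSS and 53 with peaks of −log10 q of at least 5. With q of at most 0.05, an alternative chosen after seeing the data, it was 295. With a single list it ranged from 537 to 2218, the latter without replicate 2. All genes under the stricter settings belong to the 535, which was fixed in advance since these settings only take bp away. The share of genes marked at the promoter in both lists (40.8%) was 39.6% with promoters of 500 bp, 34.1% when at least 500 bp had to be covered, 34.4% with peaks of at least 500 bp, 5.07% with −log10 q of at least 5, 21.2% with q of at most 0.05, and 42.3% to 43.95% when leaving out a list. The 13214 genes with the mark in both lists became 3220 with −log10 q of at least 5 and ranged from 9041 to 15426 under the other settings. The cause was not tested.

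Of the 15 receptor signalling genes with at least 10000 bp in both lists, 5 remained with gene bodies only, 7 with flanks of 5000 bp, 8 by the nearest TSS and 3 with −log10 q of at least 5. Of the 10 stage regulators 2 remained at that q. In list 1 alone 17 stage regulators passed, as did 12 surface genes and 4 housekeeping genes, where 9.92% of all genes did. No paired analysis was possible because the 2 lists belong to 1 group. With unknown depth, 0 bp says only that no peak was listed.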

Other observations

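Gene families that share a name show how unevenly the mark was spread. Of 1113 olfactory receptor genes 32 had H3K27ac in the window in both lists and 4 at the promoter in both, and of 321 vomeronasal receptor genes 8 and 0. Keratin genes had it in 4 of 51 windows and no promoter, and killer cell lectin-like receptor genes in 4 of 27 and no promoter. Mitochondrial ribosomal protein genes were the opposite, with the mark at the promoter in both lists in 74 of 77. Of 367 zinc finger (Zfp) genes 278 had it in both lists, and Zfp106, Zfp36 and Zfp523 (3 of 367, against 2.39% of all genes) had at least 10000 bp in both. Zfp36, which encodes an mRNA decay factor of activated cells, had 17911 bp in list 1 and 12125 bp in list 2.

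The GIMAP GTPases, a lymphocyte cluster on chromosome 6, had the mark in both lists in 8 of 8 genes and at the promoter in 7, with Gimap1 highest at 21682 and 9582 bp and none at 10000 bp in both. The SLAM receptors, known for a role in the development of NKT cells from CD4+CD8+ thymocytes, had it in 4 of 9 (44.4%). They were led by Slamf6 (23160 and 10622 bp) and Slamf1 (20933 and 9421 bp). Interleukin genes had it in 9 of 35 (25.7%, against 59.1% of all genes). At least 10000 bp in both lists was reached by 1 of them (2.86%, near the 2.39% of all genes), Il16, whose product binds CD4, with 20912 and 10473 bp. The families were chosen after earlier results of these data were known, and members of a cluster share windows.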
